A study of Mus musculus with 40 samples.

Results

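The integrated stress response (ISR) genes examined here were Trib3, Atf4, Atf5, Ddit3, Asns, Chac1, Fgf21, Psat1, Phgdh, and Ddit4, which are 10 of the 55487 genes in the count table. They are known transcription factors and targets of this response, and the set was selected on the fold changes of the day 3 contrast as far as Trib3 is concerned, which was among the most clearly lower genes at that day. For that reason all day 3 differences between genotypes are given as a description, and tests between genotypes or days were run on days 6, 12, and 21, which came from other livers. Correlations among members used all days, after removal of the mean of each genotype and day. Liver RNA came from female mice on the C57BL/6JBomTac background. HNKO mice carried floxed Nampt alleles and a Cre transgene driven by the Albumin promoter, which acts in hepatocytes, and WT mice were floxed littermates without Cre. All mice were fed a purified diet (PD). The WT groups held 5, 4, 5, and 5 livers at days 3, 6, 12, and 21, and the HNKO groups 5, 5, 6, and 3. The sample labels list these days as an age, whereas the study's methods describe them as days of PD feeding in adult mice, and the latter reading is used.

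The ISR begins when kinases that sense missing amino acids, unfolded proteins in the endoplasmic reticulum (ER), double-stranded RNA, or haem shortage phosphorylate the translation factor eIF2. General translation then slows while the mRNA of the transcription factor ATF4 is translated better, so that ATF4 protein can increase without a change in Atf4 mRNA. ATF4 and its partner CHOP, encoded by Ddit3, activate genes for amino acid synthesis, amino acid transport, glutathione turnover, and feedback control, and in liver also the hormone FGF21.

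ATF4 binds DNA at the C/EBP-ATF response element, and its core letters TGATGNAA were searched on both strands in promoter windows from 250 bases before to 50 bases after each RefSeq start (build GRCm38.p6). All 10 genes matched the RefSeq table, with 12 windows among them. The letters occurred in the windows of 4 genes, Asns, Chac1, Fgf21, and Trib3, and in 3.97% of all 32851 windows. The other 6 genes had no match in these windows. The cAMP response element TGACGTCA occurred in none of the 10 genes and in 1.79% of all windows, and the ER stress response element (ERSE) in none of the 10 and in 0.119% of all windows. The 4 matches are shown because these genes moved differently from each other in the livers described below, and capitals mark the match, 5′ to 3′ on the strand of the gene. They lie at chr2:119351003-119351102 (plus strand, Chac1), chr7:45615576-45615675 (minus strand, Fgf21), chr6:7693214-7693243 (minus strand, Asns), and chr2:152344028-152344057 (minus strand, Trib3).
Chac1: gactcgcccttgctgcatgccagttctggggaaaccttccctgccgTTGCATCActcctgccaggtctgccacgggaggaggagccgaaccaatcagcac
Fgf21: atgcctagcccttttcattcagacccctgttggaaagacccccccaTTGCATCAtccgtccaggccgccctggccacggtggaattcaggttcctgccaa
Asns: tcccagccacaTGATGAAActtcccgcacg
Trib3: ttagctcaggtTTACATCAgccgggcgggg

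The Asns match has the searched letters in the direction of the gene, and those of Chac1, Fgf21, and Trib3 have them on the opposite strand. The matches of Chac1 and Fgf21 are spelled alike. The Asns match began 23 bases before the RefSeq start, which is 23 bases inside the GENCODE transcript, whereas the Trib3 match began 15 bases past the RefSeq start and 14 bases before the GENCODE start. These matches are descriptions of sequence and not evidence of binding.

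The 38 libraries that passed the study's quality control held 16151037 to 64181492 counts (median 26466478.5), and all 10 genes were among the 20297 that passed the filter on low counts. Nampt, the targeted gene, was lower in HNKO livers over days 6, 12, and 21 (log2 fold change -0.80, SE 0.14, adjusted p = 6.26e-05, edgeR). The table counts whole genes, so reads of the deleted exons could not be separated from the rest. Of the markers of other cell types, 6 of 6 cholangiocyte, 6 of 7 macrophage, and 5 of 6 stellate cell markers were higher in HNKO livers over these days, and 3 of 7 hepatocyte markers and 1 of 5 endothelial markers (Kdr, -0.30) were lower, beside 16.9% higher and 14.8% lower of all genes. Under the scaling by library totals described below, 4 of the 5 endothelial markers were higher and none lower, beside 36.4% higher and 3.51% lower of all genes. No marker was at 0 in all libraries, and Cftr and Timp1 were the markers with 0 counts in at least 1 library, all of them WT. The summed level of the cholangiocyte markers was 34.3 to 46.2 CPM (counts relative to the TMM-scaled library size) in the 14 WT libraries and 107 to 753 CPM in the 14 HNKO libraries of days 6 to 21. The stellate cell markers summed to 70.7 to 140 CPM in WT and 99.1 to 447 CPM in HNKO, the macrophage markers to 278 to 676 CPM and 366 to 1040 CPM, and the endothelial markers to 424 to 530 CPM and 415 to 512 CPM. The hepatocyte markers summed to 89399 to 148695 CPM in WT and 56321 to 112919 CPM in HNKO. The part of these shifts in the results below was not tested, and in whole liver fewer cells of a type and less RNA per cell cannot be told apart.

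In WT livers, Atf5 and Atf4 were the most abundant members and the amino acid synthesis enzymes the least. Levels between genes are compared as CPM per kilobase of exon in the 19 WT libraries. Atf5, a transcription factor related to ATF4, had a median of 80.9 (range 53.4 to 124), and Atf4 a median of 37.5 (28.9 to 44.4). These ranges did not overlap with each other, nor did that of Atf4 with the range of Trib3 (median 5.54, 2.92 to 10.2). Below them followed Fgf21 at a median of 4.55, Ddit3 at 3.53, Ddit4 at 2.69, and Chac1 at 1.72. From Trib3 downward each gene's range overlapped with that of the next. Phgdh, Psat1, and Asns came last, with medians of 0.269, 0.229, and 0.225 CPM per kilobase. These 3 transcripts had low counts, with medians of 19.5, 50, and 48.5 per library over all 38 libraries.

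The asparagine synthetase gene Asns and the serine synthesis gene Psat1 were the members most clearly higher in HNKO livers, by about 3.63-fold and 2.37-fold over days 6, 12, and 21. Chac1, which encodes a glutathione-degrading enzyme, was 1.64-fold higher. No member was called lower. Atf4, Atf5, Ddit3, and Trib3 were not called in either direction. In this contrast, 3 of 10 members had an adjusted p under 0.05 in edgeR's quasi-likelihood test, and 31.6% of all genes tested did. All 3 were higher, whereas 16.9% of all genes were called higher and 14.8% lower. The share of members called was therefore close to that of genes in general, and the median log2 fold change of the members was 0.16 against -0.01 over all genes.

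**Figure D1:**
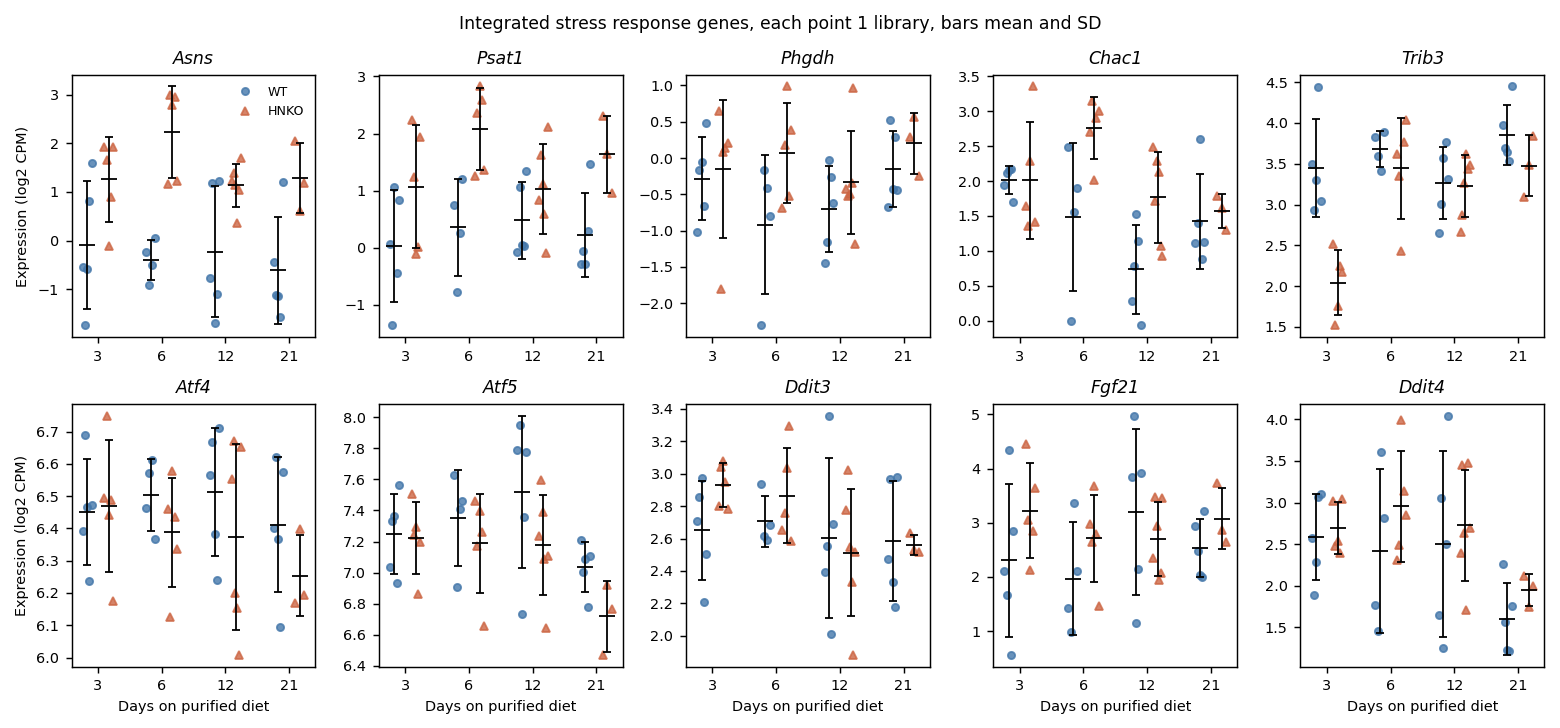
Expression of the 10 genes in each of the 38 libraries (log2 CPM, prior count of 2) against days on PD, with WT as circles and HNKO as triangles, and the group mean and SD as black bars. The axis range differs between panels. Asns triangles lie above all circles at day 6, and Trib3 triangles lie below all circles at day 3.

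Asns (chromosome 6, 7675169 to 7693254, minus strand, GRCm38) converts aspartate to asparagine. At day 6 its level was 0.462, 0.633, 0.780, and 0.968 CPM in WT livers and 2.18, 2.25, 6.87, 7.62, and 7.88 CPM in HNKO livers. All 5 HNKO livers stood above all 4 WT livers, and the HNKO livers fell into a lower pair and an upper 3. HNKO exceeded WT by 2.89 on the log2 scale (SE 0.67, adjusted p = 0.00402), and an exact two-sided permutation test of the means gave p = 0.0159, the smallest that these group sizes allow. The difference of mean log2 CPM was 2.65 within library numbers 1 to 21 and 2.54 within 22 to 41, and the call held in 9 of 9 fits that left out a library of the day. At day 12 the WT values were 0.239, 0.396, 0.514, 2.21, and 2.28 CPM, and the 6 HNKO values ran from 1.22 to 3.15 CPM with a median of 2.19. Here WT livers split into 3 low and 2 high, and the latter lay within the HNKO range. At day 21 WT livers had 0.265, 0.380, 0.389, 0.670, and 2.24 CPM and HNKO livers 1.46, 2.21, and 4.03 CPM, so that 1 WT liver overlapped with the HNKO group. In log2 terms HNKO was 0.95 above WT at day 12 (SE 0.56, adjusted p = 0.298) and 1.74 above at day 21 (SE 0.66, adjusted p = 0.140). Without WT library 41, the high one at day 21, the day 21 value was 2.60 with an adjusted p of 0.0405, against 0.706 at most when another library of the day was left out. Within the 2 series of numbers the differences of mean log2 CPM at day 12 were 1.67 and 0.96, and at day 21, when all HNKO livers were of the higher numbers, the difference within these was 1.46. Over the 3 days the value was 1.86 (SE 0.36, adjusted p = 0.000189), and 14 of 14 HNKO livers were above the WT median of their day.

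Psat1 (chromosome 19, 15904678 to 15947337, minus strand) encodes the aminotransferase of the serine pathway that starts from 3-phosphoglycerate. At day 6 WT livers had 0.513, 1.12, 1.604, and 2.23 CPM, and HNKO livers had 2.32, 2.50, 5.08, 5.91, and 7.01 CPM. The groups did not overlap, although the highest WT and the lowest HNKO liver were close. HNKO exceeded WT by 1.72 on the log2 scale (SE 0.55, adjusted p = 0.0326, exact permutation p = 0.0159), and by 1.83 and 1.53 in mean log2 CPM within the 2 series of library numbers. This call was not stable when single libraries were left out, although the fold change stayed of similar size. It was lost in 6 of 9 fits that left out 1 library of the day (WT library 8, 10, or 27 or HNKO library 7, 29, or 30), with adjusted p from 0.0564 to 0.117, and the value then lay between 1.46 and 1.80. At day 12 WT livers had 0.882, 0.945, 0.957, 2.02, and 2.46 CPM, and HNKO livers ran from 0.864 to 4.27 CPM with a median of 1.90, so the groups overlapped widely. At day 21 WT livers had 0.745, 0.749, 0.895, 1.15, and 2.71 CPM and HNKO livers 1.88, 3.04, and 4.88 CPM, again with 1 WT liver among the HNKO values. The differences were 0.60 at day 12 (SE 0.48, adjusted p = 0.465) and 1.41 at day 21 (SE 0.56, adjusted p = 0.161). Within library numbers 1 to 21 and 22 to 41, the differences of mean log2 CPM at day 12 were 0.84 and 0.19. At day 21 all 3 HNKO livers had numbers of 22 to 41, as did 2 of 5 WT livers, and within these numbers the difference was 0.76. Over the 3 days the value was 1.24 (SE 0.31, adjusted p = 0.00194), and 13 of 14 HNKO livers were above the WT median of their day.

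Phgdh, the enzyme one step before Psat1 in serine synthesis, was not called. Its log2 fold change over the 3 days was 0.63 (SE 0.27, adjusted p = 0.0751), with 12 of 14 HNKO livers above the WT median of their day. Its counts were 3 to 82 per library, and 47.3% of the 51-base stretches in its exons also occur in pseudogenes, so its counts are uncertain.

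Chac1 (chromosome 2, 119351229 to 119354381, plus strand) removes glutathione by cleaving its glutamyl bond and is a known target of ATF4 and CHOP. At day 6 WT livers had 0.923, 2.87, 3.66, and 5.55 CPM and HNKO livers 3.96, 6.45, 7.45, 7.99, and 8.76 CPM. At day 12 WT livers had 0.881, 1.14, 1.65, 2.13, and 2.82 CPM, and HNKO livers ran from 1.83 to 5.51 CPM with a median of 3.76. On both days 4 HNKO livers stood above all WT livers and the rest overlapped with the upper WT values. HNKO was 1.08 above WT on the log2 scale at day 6 (SE 0.43, adjusted p = 0.0914, exact permutation p = 0.0317) and also at day 12 (SE 0.40, adjusted p = 0.0838, exact permutation p = 0.0346), and neither adjusted p passed. Within the 2 series of numbers the differences of mean log2 CPM were 1.68 and 0.91 at day 6 and 1.30 and 0.84 at day 12. At day 21 the HNKO values of 2.40, 3.00, and 3.38 CPM lay inside the WT range of 1.77 to 5.99 CPM, and the value was -0.03 (SE 0.46). The mean over the 3 days was 0.71 (SE 0.24, adjusted p = 0.0244), with 14 of 14 HNKO livers above the WT median of their day, but without HNKO library 37 of day 21 its value was 0.69 and its adjusted p 0.0540, the highest of 28 such fits, whose lowest was 0.00468. Without WT library 8 the day 6 value was 1.46 with an adjusted p of 0.0483, against up to 0.283 without another library. Over days 6 and 12 alone, an average chosen after the data were seen, the same 3 members were called (Asns 1.92, Psat1 1.16, Chac1 1.08), as were 25.6% of all genes, 14.3% higher and 11.3% lower.

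At day 6, 2 of 10 members were called, Asns and Psat1, and 12.8% of all genes were called. Both were higher, as were 8.43% of all genes, and 4.38% were lower. The same pair was also the only one of the 10 whose WT and HNKO livers did not overlap that day, which held in the higher direction for 8.08% of all genes and in the lower for 4.68%. At day 12 no member was called while 7.82% of all genes were (4.56% higher, 3.27% lower), and at day 21 none was called while 3.12% of all genes were (2.21% higher, 0.916% lower). Nor did any member separate the groups fully on these days, which 4.79% of all genes did at day 12 (2.65% higher, 2.14% lower) and 13.9% at day 21 (7.24% higher, 6.71% lower). At unadjusted p under 0.05 there were 2 members on each of these days, Atf5 and Chac1 at day 12 beside 24.5% of all genes, and Asns and Psat1 at day 21 beside 18% of all genes. DESeq2 called 1 member, Chac1, at day 12 (adjusted p = 0.0483), where 8.78% of its calls were false on simulated data, and none at day 21. Its share of all genes called was not set beside this count, which is not read as a result about the members.

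**Figure D2:**
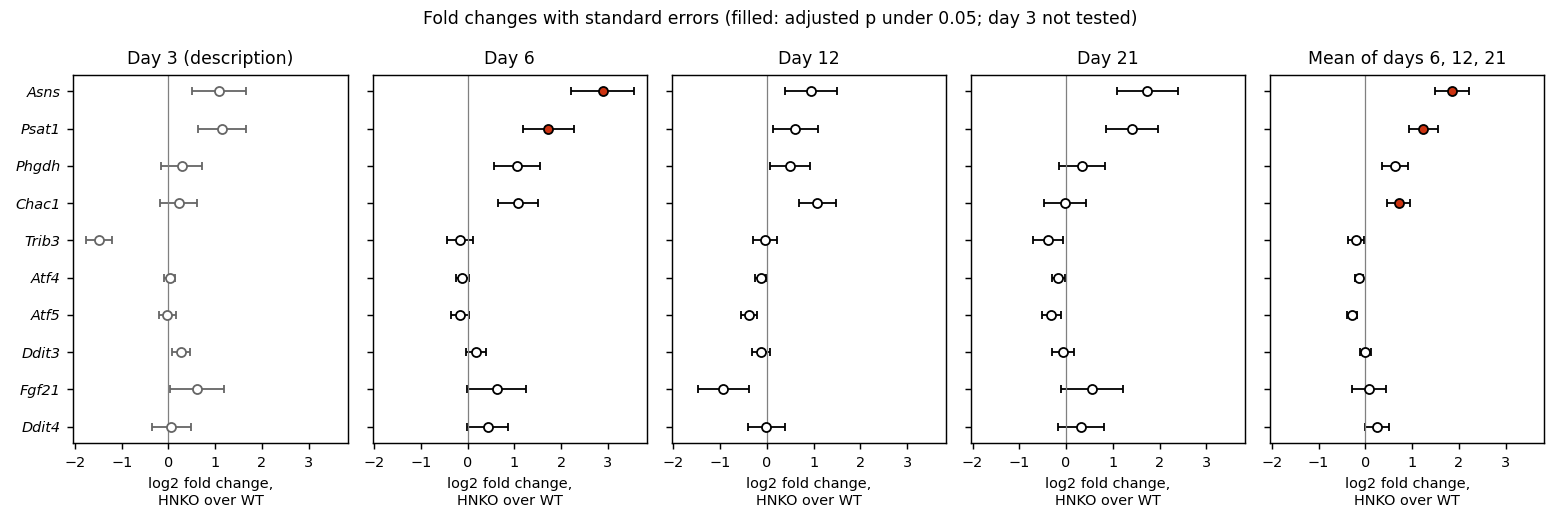
Log2 fold changes of HNKO over WT for the 10 genes at each day and for the mean of days 6, 12, and 21, with bars of 1 SE. Red points have an adjusted p under 0.05 and open points do not, and the open grey points of day 3 carry no test. Asns and Psat1 are red at day 6, and Asns, Psat1, and Chac1 in the mean.

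Trib3 (chromosome 2, 152337422 to 152344032, minus strand) encodes a pseudokinase that is induced by ATF4 and CHOP and damps ATF4 activity and insulin signaling. At day 3, WT livers had 7.59, 8.16, 9.81, 11.2, and 21.7 CPM and HNKO livers 2.79, 3.32, 4.43, 4.67, and 5.63 CPM. All 5 HNKO livers were below all 5 WT livers, with a log2 fold change of -1.49 (SE 0.28). This difference was among the values that led to the choice of the genes and is a description, and 4.11% of all genes separated the groups fully at that day, 1.8% lower in HNKO like Trib3 and 2.31% higher. At day 6 Trib3 was at 10.6, 12.0, 14.2, and 14.8 CPM in WT livers and 5.33, 10.2, 12.2, 13.5, and 16.4 CPM in HNKO livers. At day 12 the WT range was 6.21 to 13.5 CPM and the HNKO range 6.24 to 12.2 CPM, and at day 21 the ranges were 11.5 to 21.7 CPM and 8.49 to 14.2 CPM. The groups overlapped at each of these days. The log2 fold changes were -0.17 (SE 0.28), -0.05 (SE 0.26), and -0.39 (SE 0.31), and that of their mean was -0.20 (SE 0.16, adjusted p = 0.380), with an interval of 2 SE from -0.53 to 0.13. Of the other members none was lower in HNKO to this extent at day 3, when their log2 fold changes at that day ran from -0.03 for Atf5 to 1.15 for Psat1, with Asns at 1.09.

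The mRNAs of the transcription factors Atf4 and Ddit3 differed little between genotypes. Atf4 had 64.3 to 108 CPM over all groups, and its log2 fold change over days 6, 12, and 21 was -0.14 (SE 0.08, adjusted p = 0.178), with 3 of 14 HNKO livers above the WT median of their day. The interval of 2 SE ran from -0.29 to 0.02, which corresponds to between 0.820-fold and 1.01-fold. Ddit3 was at 0.00 (SE 0.12, interval -0.25 to 0.24), and 9 of 14 HNKO livers were above the WT median. Its exons share 105 bases with a second Ddit3 entry on the same strand (median count 0), where strand cannot separate reads. They share 68 bases with the tRNA synthetase gene Mars on the opposite strand, and those of Atf5 share 82 bases with Nup62, also on the opposite strand. Whether counting used the strand is not given in the sources used here, so reads of the overlaps with Mars and Nup62 may not be separated.

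Atf5, a factor with roles in the mitochondrial unfolded protein response and in hepatocyte gene expression, lay just outside the threshold. At day 12 it ran from 107 to 247 CPM in WT livers and from 100 to 194 CPM in HNKO livers, and at day 21 from 110 to 148 CPM and from 88.8 to 121 CPM, so the groups overlapped. Its log2 fold change over the 3 days was -0.28 (SE 0.11, adjusted p = 0.0505, interval of 2 SE from -0.51 to -0.06). Of 14 HNKO livers, 1 was above the WT median of its day. Its adjusted p was under 0.05 with DESeq2 (0.0413), with edgeR's newer dispersion (0.0479), and in 7 of 28 fits that left out 1 library (HNKO library 6, 12, or 13 or WT library 10, 16, 33, or 39), with a range over all 28 of 0.0107 to 0.179. Without WT library 16, the lowest WT liver of day 12, the day 12 value was -0.53 with an adjusted p of 0.0458, against up to 0.419 without another library. With counts scaled by library totals alone, which shifted the median of all genes by 0.19 to 0.20, Atf4 and Atf5 were at 0.07 and -0.08, so the sign of Atf4 depended on the scaling while both stayed below the median of all genes.

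Fgf21 encodes a fasting and stress hormone of the liver, and its level varied more between mice of the same group than with genotype. It ranged 22.3-fold over the 19 WT livers of all days together, and at day 21 alone from 3.93 to 9.22 CPM in WT livers. At day 12, WT livers ran from 2.15 to 31.4 CPM (median 14.3) and HNKO livers from 3.77 to 11.01 CPM (median 6.32), while at day 6 the medians were 3.43 and 6.88 CPM and at day 21 5.49 and 7.19 CPM. The log2 fold changes were 0.62 (SE 0.64), -0.93 (SE 0.55), and 0.55 (SE 0.66), none called, and their mean was 0.08 (SE 0.36, adjusted p = 0.893, interval -0.63 to 0.79). Fgf21 is also a known target of the fatty acid receptor PPARA, and of 12 other PPARA targets 10 were lower and none higher in HNKO livers over these days (median log2 fold change -0.83), beside 14.8% lower and 16.9% higher of all genes. Among them were Acaa1b at -1.16 (SE 0.14), Ehhadh at -0.94 (SE 0.12), and Cyp4a10 at -1.69 (SE 0.30), which act in fatty acid oxidation. Ddit4, an inhibitor of mTORC1 that glucocorticoids and stress induce, was at 0.25 (SE 0.26, adjusted p = 0.503, interval -0.27 to 0.76), with 12 of 14 HNKO livers above the WT median. Of 6 glucocorticoid-responsive genes none was called, beside 31.6% of all genes. The expression of clock genes differed between mice of 1 group, with a score of positive minus negative clock genes from -2.82 to 3.54 among WT livers of day 12, and with this score in the fit Ddit4 was at 0.46 with an adjusted p of 0.0312, against up to 0.724 under other settings.

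No difference in the genotype effects between days 6, 12, and 21 was detected. The interaction was called for 0 of 10 members and 0% of all genes, and no member reached an unadjusted p of 0.05, as 3.65% of all genes did, with the lowest at 0.0902 for Asns. DESeq2 called none of the members either, and 2 genes in all. In WT livers no member was called for a day effect while 3.43% of all genes were, and at unadjusted p under 0.05 there were 3, Atf5, Fgf21, and Ddit4, beside 18.8% of all genes. In HNKO livers none was called while 5.56% of all genes were, and 2 had an unadjusted p under 0.05, Asns and Chac1, beside 19.3% of all genes. Chac1 in HNKO livers had log2 differences of -0.93 at day 12 and -1.24 at day 21 from day 6 (adjusted p = 0.122). Without WT library 16, the day effect of Atf5 in WT had an adjusted p of 0.0351.

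Spread between mice of the same genotype and day set the precision of these comparisons. The within-group SD of log2 CPM was 1.01 for Fgf21, 0.97 for Asns, 0.83 for Psat1, and 0.71 for Phgdh. Genes of like level, within 0.5 log2 CPM, had median SDs of 0.25 to 0.48 beside these 4. Ddit4 (0.69) and Chac1 (0.66) were also above the medians of genes of like level (0.27 and 0.32), as were Trib3 (0.45 against 0.22), Atf5 (0.31 against 0.19), and Ddit3 (0.32 against 0.25), with Atf4 the closest to its own (0.20 against 0.17). The members thus included some of the more variable genes of their level, and the enzymes that rose in HNKO livers were among them.

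Some members varied together. After removal of the group means, 5 of 45 pairs of members were correlated over the 38 libraries at an adjusted p under 0.05 (100000 permutations within groups, two-sided, Benjamini-Hochberg over the 45 pairs), all positively. Asns and Psat1 had the strongest relation (r = 0.72, permutation p = 1e-05, the smallest the permutations can give, adjusted p = 0.00045, rho = 0.71, permutation p = 2.0e-05). Psat1 also varied with Fgf21 (r = 0.67, permutation p = 4.0e-05, adjusted p = 0.0009, rho = 0.71), and Fgf21 with Atf5 (r = 0.67, permutation p = 9.0e-05, adjusted p = 0.00135, rho = 0.62, permutation p = 0.00063). The other pairs were Asns with Ddit4 (r = 0.62, permutation p = 0.00012, adjusted p = 0.00135, rho = 0.64, permutation p = 0.00013) and Atf4 with Ddit3 (r = 0.55, permutation p = 0.00258, adjusted p = 0.0232, rho = 0.53, permutation p = 0.00389). By Spearman's rho 9 pairs were called, these 5 among them. The libraries of a pair share depth and scaling, and the share of correlated pairs among other genes was not computed. Without the 2 livers farthest from the median of the gene taken as x, r was 0.69, 0.66, 0.57, 0.64, and 0.44 for the 5 pairs in the order given. Atf4 with Ddit3 lost its call in 4 of 38 fits that left out 1 liver (HNKO library 12 or 35 or WT library 20 or 33), with permutation adjusted p of 0.0502 to 0.0612, and the other 4 pairs kept theirs in all 38.

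The pairs were also compared between the 2 series of library numbers in the labels, 1 to 21 (18 libraries) and 22 to 41 (20 libraries), and between genotypes. Asns with Psat1 had r = 0.81 and 0.60 in the 2 series, Fgf21 with Psat1 0.59 and 0.75, Atf5 with Fgf21 0.81 and 0.64, and Asns with Ddit4 0.75 and 0.67. Atf4 with Ddit3 had r = 0.12 in the lower numbers and 0.73 in the higher ones, so this relation did not hold in both. Within genotypes, r of the 5 pairs was 0.48 to 0.75 over the 19 WT livers and 0.47 to 0.84 over the 19 HNKO livers. With the number series and the clock score removed, Asns with Ddit4 had r = 0.47 (permutation adjusted p = 0.0643).

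**Figure D3:**
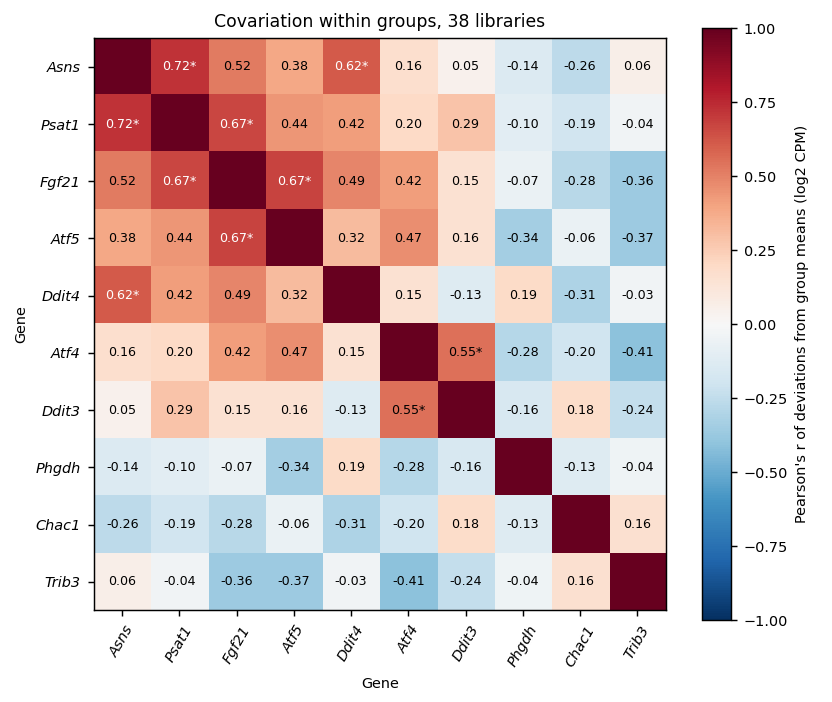
Pearson's r between the deviations of log2 CPM from the group means for each pair of the 10 genes over 38 libraries, with red for positive and blue for negative values and an asterisk where the adjusted permutation p is under 0.05. Asns, Psat1, Fgf21, Atf5, and Ddit4 share the positive corner, and no pair with Trib3, Chac1, or Phgdh carries an asterisk.

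Trib3, like Chac1 and Phgdh, had no called pair. Its r with the other members ran from -0.41 with Atf4 to 0.16 with Chac1. Among 12598 genes of at least 1 log2 CPM on average, those whose deviations were most like Trib3 over the 38 libraries were Abca6 (r = 0.75), Gm46124 (0.73), Mpzl2 (0.73), Tango2 (0.72), and Insr (0.70), the last encoding the insulin receptor. The most opposed were Tmem88 (r = -0.71), Fbxl14 (-0.71), Hsp90aa1 (-0.70), Dok2 (-0.70), and Hist1h3e (-0.70), of which Hsp90aa1 encodes a cytosolic chaperone induced by heat shock. These correlations are across libraries that share depth and scaling and are given as a description.

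The wider pathway was mixed. Counts are for the mean of days 6, 12, and 21 beside the 16.9% higher and 14.8% lower of all genes. Of 12 ISR regulators and ATF4 partners, 1 was higher, the stress-induced factor Atf3 (0.84, SE 0.29, adjusted p = 0.0280), and 2 were lower, the haem-regulated eIF2 kinase gene Eif2ak1 (-0.29, SE 0.05) and the constitutive eIF2 phosphatase subunit gene Ppp1r15b (-0.33, SE 0.08). Both lower genes lost their call when counts were scaled by library totals alone, under which 5 of the 12 were higher and 0 lower, beside 36.4% higher and 3.51% lower of all genes.

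Of 15 other amino acid genes of the ATF4 program, 6 were higher and 1 lower, with a median of 0.01. The mitochondrial folate enzyme gene Mthfd2 rose by 1.18 on the log2 scale (SE 0.24) and the cationic amino acid transporter gene Slc7a1 by 0.97 (SE 0.20). At day 6 WT livers held 11 to 26 counts of Mthfd2. The cystine transporter gene Slc7a11 was also called (fitted value 4.37, SE 0.62, adjusted p = 2.52e-06), but WT livers held 0 to 2 counts of it at day 6 and 0 to 1 at day 12, against 10 to 279 and 3 to 55 in HNKO livers, so the size of its fold change is not determined. At day 21, with 1 to 12 counts in WT and 5 to 23 in HNKO livers, it was not called (1.87, SE 0.94, adjusted p = 0.288). Shmt2, the mitochondrial serine hydroxymethyltransferase gene, was at -0.33 (SE 0.09) and lost its call under scaling by library totals. By day, 6 of the 15 were higher at day 6, 1 at day 12, and 0 at day 21, beside 8.43%, 4.56%, and 2.21% of all genes, and none was lower on any of these days.

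Of 10 other ATF4 and CHOP outputs, 3 were higher and 1 was lower. The higher ones were the death receptor gene Tnfrsf10b (2.10, SE 0.28), the secreted stanniocalcin gene Stc2 (1.32, SE 0.27), and the ER oxidase gene Ero1l (0.42, SE 0.11). WT livers at day 6 held only 5 to 14 counts of Tnfrsf10b and 3 to 7 of Stc2. The lower one was the lipoprotein receptor gene Vldlr (-1.03, SE 0.18). Under library totals 5 were higher and 1 lower. Of 12 cytosolic tRNA synthetase genes, Wars (0.22) and Lars (0.17) were higher and Yars (-0.18) and Aars (-0.21) lower, all by small amounts, and under library totals 7 were higher and 0 lower. Of 14 genes for ER chaperones and their regulators, Xbp1 was higher (0.25) and Sel1l (-0.31), Hsp90b1 (-0.30), and Edem1 (-0.35) were lower, and under library totals 3 were higher and 0 lower. Under library totals 8 PPARA targets were called lower and none higher.

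**Figure D4:**
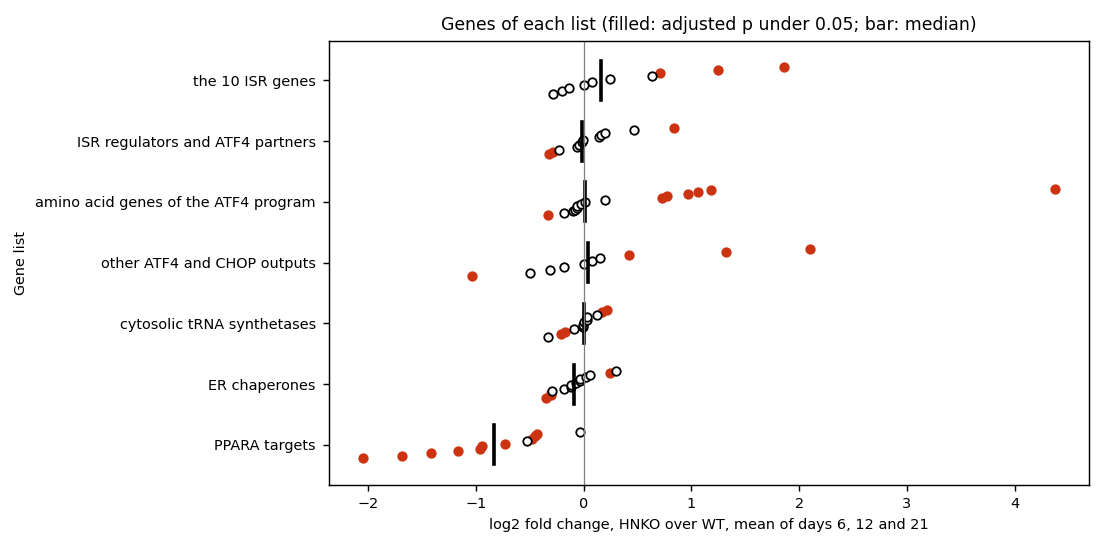
Log2 fold changes of HNKO over WT for the mean of days 6, 12, and 21, 1 point per gene in 7 lists. Red points have an adjusted p under 0.05, open points do not, and black bars are list medians. Slc7a11, which had few WT counts, is the red point at 4.37, and the PPARA targets lie to the left with a median of -0.83.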

How the data were processed

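Total liver RNA was depleted of rRNA and sequenced as 51-bp paired reads. The authors aligned these to GRCm38 with STAR 2.7.2b, summarised fragments on GENCODE M22 genes with featureCounts 1.6.4, and deposited raw counts per gene without normalization. Gene coordinates and starts, exon lengths, exon overlaps, and shared 51-base stretches given here are from GENCODE M21. Strand use in counting is not given in the sources used here. The table had 0 columns without a sample. HNKO libraries 17 and 18 of day 21, described as failing quality control, were left out.

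Counts were filtered with filterByExpr (minimum count 10, minimum total 15, minimum proportion 0.7) and scaled by TMM. HNKO and WT were compared with the quasi-likelihood test of edgeR 4.0.16 (legacy dispersion, R 4.3.3) in a fit of 8 groups, with Benjamini-Hochberg adjustment over 20297 genes and a threshold of 0.05. CPM are TMM-scaled, and standard errors are those implied by the test. The labels number each library but do not name the animal, so p-values measure the spread between libraries. No 2 libraries of a group agreed within sampling noise. On simulated data with 4-fold changes, edgeR recovered 84.5% of changed genes at day 6, 92.5% at day 12, and 83% at day 21. In the mean of days 6, 12, and 21 it recovered 94.5%. Of its calls, 3.43%, 4.15%, 5.68%, and 4.06% were false, in the same order. The changed genes were picked at random, so recovery of smaller changes or of genes as variable as most members was not measured. DESeq2 1.42.0 was an alternative, with 8.78% false calls at day 12, 14.0% at day 21, and 9.09% in the mean, above the nominal rate.

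The genes and lists were chosen with earlier results of these data known. Besides the 10 genes, the text names from each list up to 3 higher and 3 lower called genes of smallest p in the mean contrast, Nampt, the 5 genes most and least like Trib3, and markers at 0 in a library. Other alternatives were other scalings, filters, covariates, all 40 libraries, and leaving out each library. Promoter sequences are from RefSeq (GRCm38.p6).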

Additional observations from a re-analysis of the deposited data

Results flagged for a closer look

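Phgdh in HNKO library 3 of day 3 was far below the other 4 livers of its group, at -1.80 log2 CPM against 0.08 for the nearest. The gap was 0.768 of the range of the group. It was the only such value among 70 groups of 4 to 6 libraries checked, of which about 1 in 20 would be marked by chance. The value rests on 5 counts.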

How the results depend on the processing

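Over days 6, 12, and 21, Asns and Psat1 stayed higher at an adjusted p under 0.05 in all alternatives that tested them. A minimum of 10 counts in every library removed Asns, Psat1, and Phgdh, so that at day 6 the number of members called went from 2 to 0 and in the mean of the 3 days from 3 to 1 (Chac1), each of 7 tested, beside 2078 and 4746 of 14136 genes. In that mean, 4 of 12 amino acid genes of the ATF4 program were then higher and 1 lower. Of 8 other ATF4 and CHOP outputs, 1 was higher and 1 lower. With all 40 libraries 1 member was called at day 6 (Asns), 1 for the day effect in HNKO (Atf5, adjusted p = 0.0242) in place of 0, and 10 correlated pairs in place of 5. Of these 10, 4 were among the former 5, Asns with Ddit4 was lost (r = 0.25, permutation adjusted p = 0.362), and Asns with Chac1 was negative (r = -0.44, permutation adjusted p = 0.0409). Psat1 at day 6 then had an adjusted p of 0.0873 and Atf5 in the mean 0.0231. In HNKO library 17, with 12287423 counts, Asns, Fgf21, and Phgdh had 0 counts, which allows up to 0.244 CPM, and in library 18 they had 70, 17, and 7. At day 12, DESeq2 and library totals each called 1 member, Chac1. Under library totals Chac1 at day 6 (adjusted p = 0.0332) and Phgdh in the mean (0.0179) also passed, and of all genes called in the mean 7394 were higher and 713 lower against 3423 and 2994. When 1 library was left out at a time, 1 to 2 members were called at day 6, 0 to 1 at day 12, 0 to 1 at day 21, 2 to 4 in the mean, 0 to 0 for the interaction, 0 to 1 for the day effect in WT, and 0 to 0 for that in HNKO, with 4 to 11 correlated pairs. Unless given here, the share of all genes called under a setting was not set beside its count of members. These counts describe the members only and are not read against genes in general. Among single members, 20 calls were gained, 8 lost, and 0 reversed, and 66 values that were not called on either side changed sign. The causes were not tested. Library totals alone and days 6 and 12 alone were added after the data were seen. No paired analysis was possible because each library has its own number and groups share none. Phgdh, Asns, and Psat1 had the lowest median counts of the 10 genes. The limit given for 0 counts covers counting error only.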
